A study of Homo sapiens with 12 samples.

Results

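BCL2, BCL2L1, BCL2L2, MCL1 and BCL2A1 are the antiapoptotic genes of the BCL2 family and encode the proteins that obatoclax was designed to occupy. They were followed here through short exposure to the drug in leukaemia cell lines. Each gene was found by its symbol in the platform annotation: a probe set belonged to a gene only if that symbol was its sole one, and of several such probe sets the one with the greatest mean on the 12 arrays gave the gene's value. All 5 genes were found among 19775 genes with a probe set of 1 symbol, and they had 17 such probe sets. A gene was tested if its value exceeded 4 on the log2 scale on at least 2 arrays. BCL2, BCL2L1, BCL2L2 and MCL1 were among the 10561 genes that did so, and BCL2A1 was not.

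Antiapoptotic BCL2 proteins sit on the outer mitochondrial membrane and hold a groove that binds the BH3 helix of their relatives. By binding the BH3-only proteins and the pore formers BAX and BAK1, they keep cytochrome c inside the mitochondrion and the caspases inactive. Obatoclax is a BH3 mimetic, a small molecule that was made to fill this groove. It acts on the proteins, whereas the arrays measured RNA, so neither the drug's binding nor the amount of any protein was measured. In B-lineage leukaemia BCL2 and MCL1 are the members best known as survival proteins. MCL1 protein and RNA are both short-lived, and the transcripts of BCL2L1 and MCL1 are known to be spliced into forms with opposite action.

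SEM-K2 and RS4:11 are established lines of acute lymphoblastic leukaemia with the MLL-AF4 fusion, each of them a single cell line with no normal counterpart in the series. The groups were SEM-K2 with vehicle, with obatoclax at the EC50 of a 72 h assay (the concentration giving the middle of the drug's range of effect) and at 3 times as much (3xEC50), and RS4:11 with the same treatments. Exposure lasted 6 h in all groups, and each of the 6 groups had 2 replicates on Affymetrix U133 Plus 2 arrays. The sources used here gave no molar concentrations, nor was it said whether SEM-K2 and RS4:11 received equal ones. The replicates were called biologic, with no word on separate cultures, so the p-values speak only of the spread among these arrays, which may be partly technical. Values are on the log2 scale throughout, ± marks the standard error (SE) of a change unless SD is stated, and genes were not compared with each other in level.

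SEM-K2 3xEC50 replicate 2, called the deviating array here, stood apart. The 3′ control probe set of ACTB exceeded the 5′ one by 1.97 (log2) on this array, against 0.87 to 1.23 on the other 11, where a wide gap is a known sign of RNA degradation. For GAPDH the same gap was 0.61, against 0.08 to 0.30. Values without it are given beside the drug changes, line differences, orders and correlations of BCL2L1, BCL2L2 and MCL1 that it moved. Of 11 B cell precursor markers measured, 9 exceeded 4 on every array, among them CD79A, VPREB1 and PAX5. The others, DNTT and RAG1, were low in SEM-K2. Their SEM-K2 group means were 3.31 to 3.89 and 2.74 to 3.38, against 8.80 to 9.21 and 9.32 to 10.44 in RS4:11. CD24 exceeded 4 in both lines but was lower in SEM-K2, at 6.47 against 13.20 with vehicle. Also lower there with vehicle were VPREB1 (9.68 against 12.83), CD79B (6.79 against 9.68) and IGLL1 (11.45 against 14.05). PAX5 (12.90 against 12.61) and CD22 (9.67 against 9.47) went the other way. Of the markers of other cell types, 1 of 8 myeloid markers exceeded 4 on every array (CSF1R), as did 1 of 8 T and NK cell markers (NKG7). So did 1 of 5 erythroid and megakaryocyte markers (ITGA2B) and 2 of 8 fibroblast and epithelial markers (COL1A1 and KRT8). The remaining markers of those 4 lists exceeded 4 on no array.

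Across the family no member passed the test for an effect of obatoclax in either line. In limma's moderated test, with Benjamini-Hochberg adjustment over all 10561 genes, 0 of the 4 tested members were called in SEM-K2 at 3xEC50, where 0.824% of all genes were called. BCL2 alone had an unadjusted p under 0.05 there, as had 11.7% of all genes. At EC50 in SEM-K2 the count was again 0, against a background of 0.17%, and 0 members had an unadjusted p under 0.05, as 5.47% of all genes had. In RS4:11 0 members were called at 3xEC50 and 0 at EC50, and no gene of the array was called at either dose, a background of 0%. No member had an unadjusted p under 0.05 in RS4:11 at either dose, whereas 4.9% of all genes had one at 3xEC50 and 4.2% at EC50. With the replicate number as a block, 220 genes were called in SEM-K2 at 3xEC50 against 87 without it, and 46 against 18 at EC50, and the members' count stayed at 0 in both. Averaging the doses called 0 members in SEM-K2, against 0.748% of all genes, with BCL2 alone at an unadjusted p under 0.05 (10.2% of all genes). BCL2 then had 0.25 ± 0.11 (adjusted p = 0.484). The same average in RS4:11 called 0 members and 0% of all genes, and 0 members and 5.93% of genes had an unadjusted p under 0.05.

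**Figure D1:**
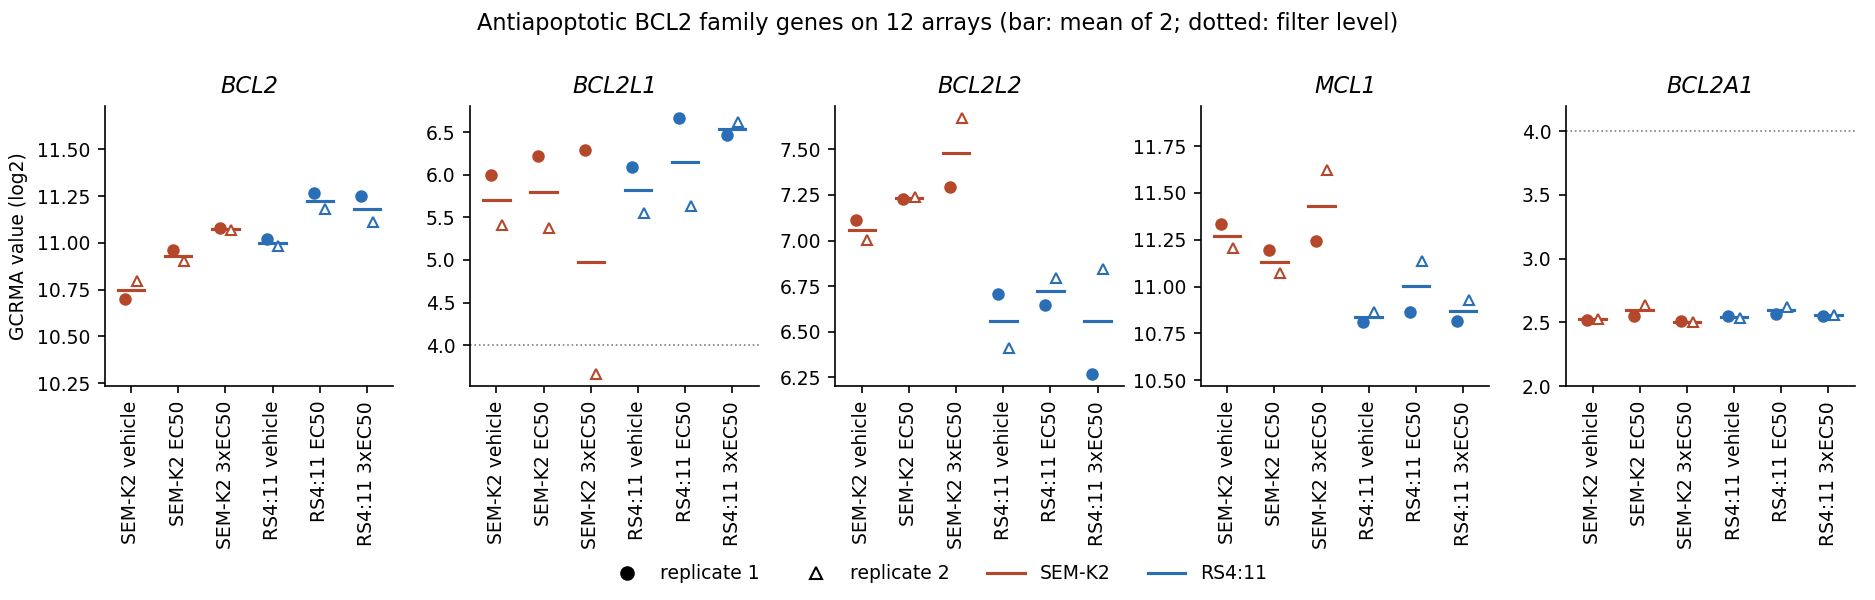
Log2 value of each of the 5 antiapoptotic genes (1 panel a gene) on every array, by line and treatment. Points are single arrays and bars are group means of 2. BCL2 lies above its vehicle arrays on every treated array of both lines, BCL2L1 drops to 3.67 on SEM-K2 3xEC50 replicate 2, and BCL2A1 stays between 2.50 and 2.64.

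BCL2, the founding member and a mitochondrial guard of lymphoid cells, had the same direction on every treated array by the probe set that gave its value. In SEM-K2 its probe set 203685_at read 10.70 and 10.80 with vehicle, 10.96 and 10.90 at EC50, and 11.08 and 11.07 at 3xEC50. The RS4:11 arrays read 11.02 and 10.98 with vehicle, 11.27 and 11.18 at EC50, and 11.25 and 11.11 at 3xEC50. All 4 treated arrays lay above both vehicle arrays in each line, with no overlap. The doses did not overlap in SEM-K2, where 3xEC50 was the higher, and overlapped in RS4:11. The share of all genes with such an order of the doses was not counted. BCL2 was the only member with treated arrays above vehicle in both lines at both doses, a pattern that 3.61% of the tested genes had. For a single comparison the share of such genes was 22.6% in SEM-K2 at 3xEC50, 21.8% in SEM-K2 at EC50, 18.4% in RS4:11 at 3xEC50 and 17.5% in RS4:11 at EC50. As in any bulk sample, a shift in the mix of cells and a shift in RNA per cell cannot be told apart here.

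The differences were small. At 3xEC50 in SEM-K2 BCL2 averaged 11.07 ± 0.01 against 10.75 ± 0.07 with vehicle (SD, n = 2 each), a change of 0.33 ± 0.13 or 1.25-fold, with a 95% interval of 0.04 to 0.62, an unadjusted limma p of 0.0318 and an adjusted p of 0.363. At EC50 in SEM-K2 the change was 0.18 ± 0.13 (adjusted p = 0.999). In RS4:11 it was 0.18 ± 0.13 at 3xEC50 (adjusted p = 0.999) and 0.22 ± 0.13 at EC50 (adjusted p = 1.00). The intervals of these 3 changes included 0 and reached up to 0.47 in SEM-K2 at EC50, 0.47 in RS4:11 at 3xEC50 and 0.51 in RS4:11 at EC50. An average over both lines and both doses, added after these values were seen, gave 0.23 ± 0.08, or 1.17-fold, with an adjusted p of 0.233 in limma and 0.118 with the replicate block. In that average 0 of the 4 members and 0.833% of all genes were called, and BCL2 and 14.6% of all genes had an unadjusted p under 0.05.

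The responses of the lines were also compared directly for BCL2. The change at 3xEC50 was greater by 0.15 ± 0.18 in SEM-K2 than in RS4:11 (adjusted p = 1.00), and at EC50 the difference was −0.04 (adjusted p = 1.00). Over all genes 0.0379% were called in the difference at 3xEC50 and 0.00947% at EC50, and 0 of the 4 members were called in each. No member had an unadjusted p under 0.05 in these differences, where 3.69% of all genes had one at 3xEC50 and 1.75% at EC50. The step between the doses was 0.14 in SEM-K2 and −0.04 in RS4:11, and no gene was called in either step by limma, a background of 0% for each. The unadjusted p was under 0.05 for 0 members in both steps, for 2.22% of all genes in SEM-K2 and for 0.805% in RS4:11.

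The other probe sets of BCL2 covered the same gene with less uniform values. In SEM-K2 at 3xEC50 the change was 0.27 for 207005_s_at, 0.12 for 207004_at and 0.00 for 203684_s_at. In SEM-K2 at EC50 they gave 0.27, 0.07 and −0.04 in that order. In RS4:11 they gave 0.10, −0.08 and −0.02 at 3xEC50, and 0.11, 0.33 and −0.30 at EC50. The average over both lines and both doses was 0.19, 0.11 and −0.09. The rise of 203685_at in both lines was thus not shared by 203684_s_at. None of these 3 was called among 24865 probe sets in these comparisons. The deviating array mattered little for the changes in SEM-K2 at 3xEC50. Without it they were 0.32 for 207005_s_at, 0.20 for 207004_at and 0.07 for 203684_s_at, and that of 203685_at stayed at 0.33.

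**Figure D2:**
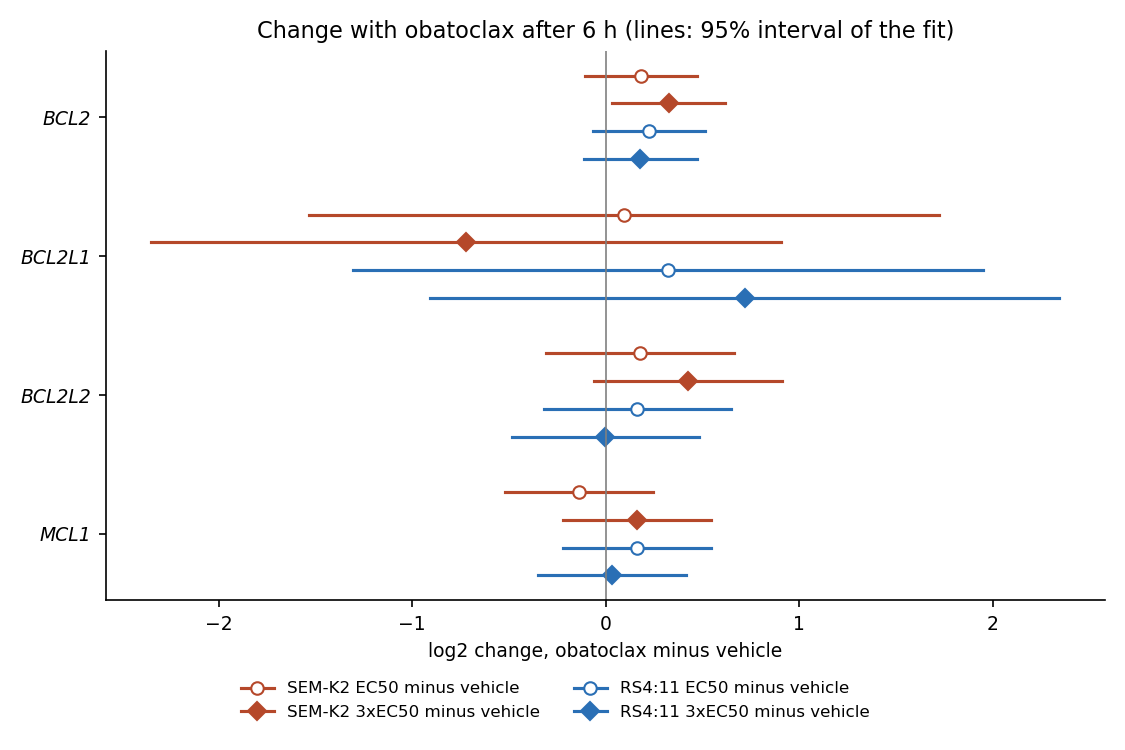
Log2 change with obatoclax minus vehicle for the 4 tested members in each line and dose, with 95% intervals from limma. The interval excludes 0 for BCL2 in SEM-K2 at 3xEC50 (0.04 to 0.62) and spans 0 for the other changes. BCL2L1 has the widest intervals.

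BCL2L1 encodes BCL-xL, which like BCL2 sequesters BH3-only proteins and BAX. In SEM-K2 its probe set 206665_s_at read 6.00 and 5.41 with vehicle, 6.23 and 5.37 at EC50, and 6.30 and 3.67 at 3xEC50. Its RS4:11 values were 6.10 and 5.55 with vehicle, 6.66 and 5.63 at EC50, and 6.47 and 6.62 at 3xEC50. The 3.67 belongs to the deviating array and is the lowest value of the 12. Replicate 1 read higher than replicate 2 in 5 of the 6 groups. In RS4:11 at 3xEC50 both arrays lay above both vehicle arrays, and the treated arrays overlapped vehicle in the other 3 comparisons.

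The change of BCL2L1 in SEM-K2 at 3xEC50 was −0.72 ± 0.72 (adjusted p = 0.762 in limma), with an interval of −2.35 to 0.90. Without SEM-K2 3xEC50 replicate 2 it was 0.59, so the sign rested on 1 array. In RS4:11 the change was 0.72 ± 0.72 at 3xEC50 and 0.32 ± 0.72 at EC50, neither called. The difference between the lines in the response to 3xEC50 was −1.44 ± 1.02 (adjusted p = 1.00), and −0.12 without that array. A second probe set of BCL2L1, 215037_s_at, was also at its lowest on the deviating array, at 4.0 against 4.19 to 6.42 on the other 11. The third, 212312_at, was not low there, at 5.70 against 4.78 to 6.01. Its change in SEM-K2 at 3xEC50 was 0.55, or 0.62 without the array, and that of 215037_s_at was 0.12, or 1.25 without it. The last, 231228_at, ran between 2.80 and 3.86 and did not pass the filter.

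BCL2L2 encodes BCL-w, a close relative of BCL2 and BCL-xL with the same groove. In SEM-K2 its probe set 209311_at read 7.11 and 7.0 with vehicle, 7.23 and 7.24 at EC50, and 7.29 and 7.67 at 3xEC50. The RS4:11 values were 6.71 and 6.41 with vehicle, 6.65 and 6.80 at EC50, and 6.27 and 6.84 at 3xEC50. In SEM-K2 the groups did not overlap and followed the dose, as for BCL2, while in RS4:11 all 3 groups overlapped. The share of all genes with that SEM-K2 order was not counted. BCL2L2 and BCL2 were the members whose 4 treated SEM-K2 arrays exceeded both vehicle arrays, as 12.4% of the tested genes did. In RS4:11 BCL2 was the only such member, and 10.8% of genes did so.

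At 3xEC50 in SEM-K2 BCL2L2 averaged 7.48 ± 0.27 against 7.06 ± 0.08 with vehicle (SD, n = 2 each). The change of 0.43 ± 0.22 had an interval of −0.06 to 0.91 and an adjusted limma p of 0.492. The highest value, 7.67, was that of the deviating array, and without it the change was 0.24. At EC50 it was 0.18 ± 0.22 in SEM-K2 (adjusted p = 0.999) and 0.16 ± 0.22 in RS4:11. At 3xEC50 in RS4:11 it was −0.00 ± 0.22, and the lines' responses to 3xEC50 differed by 0.43 ± 0.30 (adjusted p = 1.00), or by 0.24 without the deviating array. The other BCL2L2 probe set, 1555140_a_at, stayed between 2.85 and 3.75, under the filter. A probe set whose annotation joins BCL2L2 with PABPN1 and their readthrough gene, 201544_x_at, was given to none of them.

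MCL1 is known for its fast turnover, since its protein is readily ubiquitinated and degraded. In SEM-K2 its probe set 200797_s_at read 11.33 and 11.21 with vehicle, 11.20 and 11.07 at EC50, and 11.24 and 11.62 at 3xEC50. In RS4:11 it read 10.81 and 10.87 with vehicle, 10.86 and 11.14 at EC50, and 10.82 and 10.93 at 3xEC50. Both EC50 arrays of SEM-K2 lay below both vehicle arrays, as 11.8% of tested genes did, and the other treated groups overlapped their vehicle. The 11.62 of the deviating array was the highest of the 12.

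The change of MCL1 in SEM-K2 was 0.16 ± 0.17 at 3xEC50 (adjusted p = 0.776 in limma) and −0.14 ± 0.17 at EC50 (adjusted p = 0.999). In RS4:11 it was 0.03 ± 0.17 at 3xEC50 and 0.16 ± 0.17 at EC50. The lines' responses differed by 0.13 ± 0.24 at 3xEC50 and by −0.30 ± 0.24 at EC50, neither called. Without SEM-K2 3xEC50 replicate 2 the SEM-K2 change of MCL1 at 3xEC50 was −0.03 and the difference between the lines' responses −0.06.

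The probe sets of MCL1 separated on that array. There 200797_s_at was the highest of all arrays, while 200796_s_at read 4.83 against 6.68 to 8.06 on the other 11 and 214056_at read 4.28 against 4.73 to 6.38. The difference 200797_s_at minus 200796_s_at within an array was 6.79 there, against 3.27 to 4.46 on every other array. In SEM-K2 at 3xEC50 the probe sets gave changes of opposite sign, 0.16 for 200797_s_at but −1.59 for 200796_s_at, −1.16 ± 0.49 for 214056_at (adjusted p = 0.438) and −0.32 for 200798_x_at. Without the array they were −0.03 for 200797_s_at, −0.05 for 200796_s_at, −0.45 for 214056_at and 0.04 for 200798_x_at. Among the other 11 arrays the difference was highest, at 4.46, in RS4:11 EC50 replicate 2. That array had the highest GAPDH gap of the 11, 0.30, but an ACTB gap of 1.07, within their range of 0.87 to 1.23. The part of RNA quality in these differences was not tested. Of the 2 remaining probe sets, 214057_at ran between 4.67 and 5.28, and 227175_at between 1.80 and 1.88, under the filter.

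**Figure D3:**
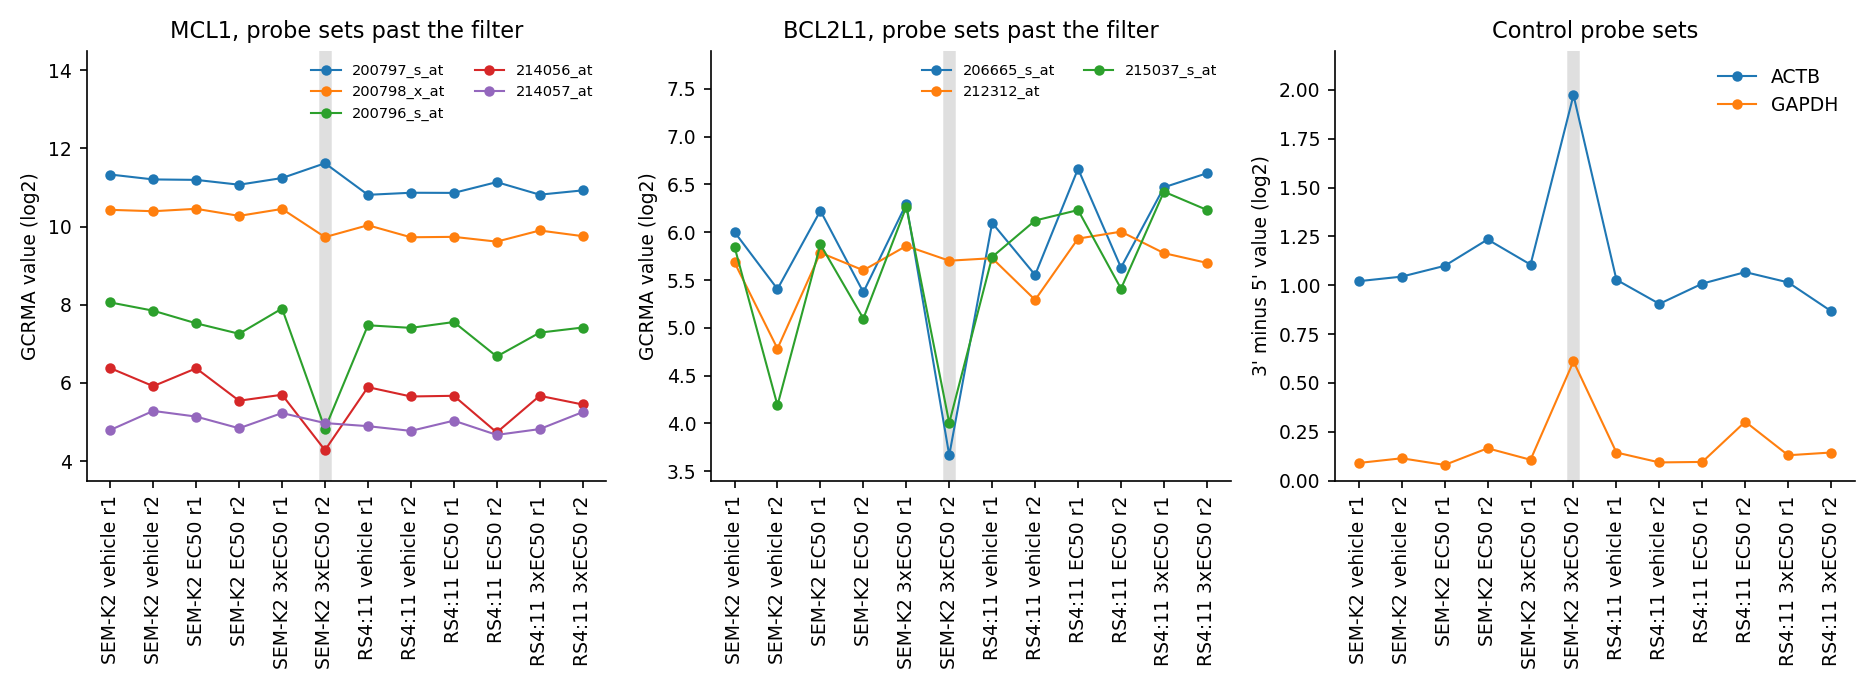
Log2 value of the probe sets of MCL1 and BCL2L1 past the filter over the 12 arrays, 1 panel a gene and 1 line a probe set. A further panel gives the 3′ minus 5′ gap of the ACTB and GAPDH control probe sets. Replicates 1 and 2 are marked r1 and r2. The grey band marks SEM-K2 3xEC50 replicate 2, on which 200796_s_at of MCL1 falls to 4.83 and 206665_s_at of BCL2L1 to 3.67.

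BCL2A1, known as BFL-1 or A1 and induced by NF-kappaB in activated B cells, had 1 probe set, 205681_at. It ran between 2.50 and 2.64 on the 6 SEM-K2 arrays and between 2.54 and 2.62 on the 6 RS4:11 arrays. Every array was under the filter of 4, and the 2 lines overlapped. BCL2A1 was thus not above this floor in any group, and neither a fold change nor a test between the lines is given.

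The lines were then compared. Averaged over the 3 treatments, BCL2L2 and MCL1 were higher and BCL2 lower in SEM-K2 than in RS4:11, so 3 of the 4 tested members were called, where 41.1% of all genes were called (23.3% higher and 17.8% lower in SEM-K2). The same 3 had an unadjusted p under 0.05, as had 48.8% of all genes. Doses were set by EC50, so a treated SEM-K2 array and a treated RS4:11 array may have had different concentrations. With vehicle alone 0 of the 4 were called in limma, and 2 had an unadjusted p under 0.05 (BCL2L2 and MCL1). In that comparison 19.6% of all genes were called and 30.2% had an unadjusted p under 0.05.

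BCL2L2 had the clearest separation. Its 6 SEM-K2 arrays, from 7.0 to 7.67, all lay above its 6 RS4:11 arrays, from 6.27 to 6.84, which 15.1% of the tested genes matched. No member had all SEM-K2 arrays below all RS4:11 arrays, as 12.8% of genes had. The mean was 7.26 ± 0.23 in SEM-K2 and 6.61 ± 0.23 in RS4:11 (SD, n = 6 each). The difference of 0.65 ± 0.12, or 1.56-fold, had an interval of 0.37 to 0.93 and an adjusted limma p of 0.0024. The exact permutation test over 924 splits gave p = 0.0022, the smallest these splits can give. The splits exchanged arrays freely between the lines, without regard to treatment or to the replicate number, which pairs the samples. The permutation p-values here and below therefore do not allow for that pairing and may overstate the evidence. With vehicle alone the difference was 0.50 ± 0.22 (adjusted p = 0.153).

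MCL1 averaged 11.28 ± 0.19 in SEM-K2 and 10.90 ± 0.12 in RS4:11 (SD, n = 6 each). The SEM-K2 arrays ran from 11.07 to 11.62 and those of RS4:11 from 10.81 to 11.14, so the lines overlapped slightly. The difference was 0.37 ± 0.10, or 1.3-fold (interval 0.15 to 0.59, adjusted limma p = 0.0126, exact permutation p = 0.0043). With vehicle alone it was 0.43 ± 0.17 (adjusted p = 0.117). Of the other MCL1 probe sets 200798_x_at gave 0.49 ± 0.14 (adjusted p = 0.0198 over all probe sets) and 200796_s_at gave −0.07. Without the deviating array these probe sets all had the same sign. The differences were 0.31 for 200797_s_at, 0.61 for 200798_x_at, 0.45 for 200796_s_at, 0.42 for 214056_at and 0.18 for 214057_at. With all arrays the mean of all MCL1 probe sets gave 0.19 (adjusted p = 0.331).

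BCL2 averaged 10.92 ± 0.15 in SEM-K2 and 11.14 ± 0.12 in RS4:11 (SD, n = 6 each), with overlapping ranges of 10.70 to 11.08 and 10.98 to 11.27. The difference was −0.22 ± 0.07, a ratio of 0.860 (interval −0.39 to −0.05, adjusted limma p = 0.0415, exact permutation p = 0.0216). The call was lost on leaving out any of the arrays other than SEM-K2 vehicle replicate 2, with values of −0.24 to −0.19 and adjusted p of 0.0571 to 0.113. Probe sets 203684_s_at and 207005_s_at of BCL2 had the opposite sign, at 0.11 and 0.13, and 207004_at had −0.02. With adjustment over all probe sets 203685_at itself was not called in limma (adjusted p = 0.059). BCL2L1 averaged 5.49 ± 0.98 in SEM-K2 and 6.17 ± 0.49 in RS4:11 (SD, n = 6 each), and its difference of −0.68 ± 0.42 was not called (adjusted limma p = 0.227, exact permutation p = 0.149). Without the deviating array the BCL2L1 difference was −0.24.

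**Figure D4:**
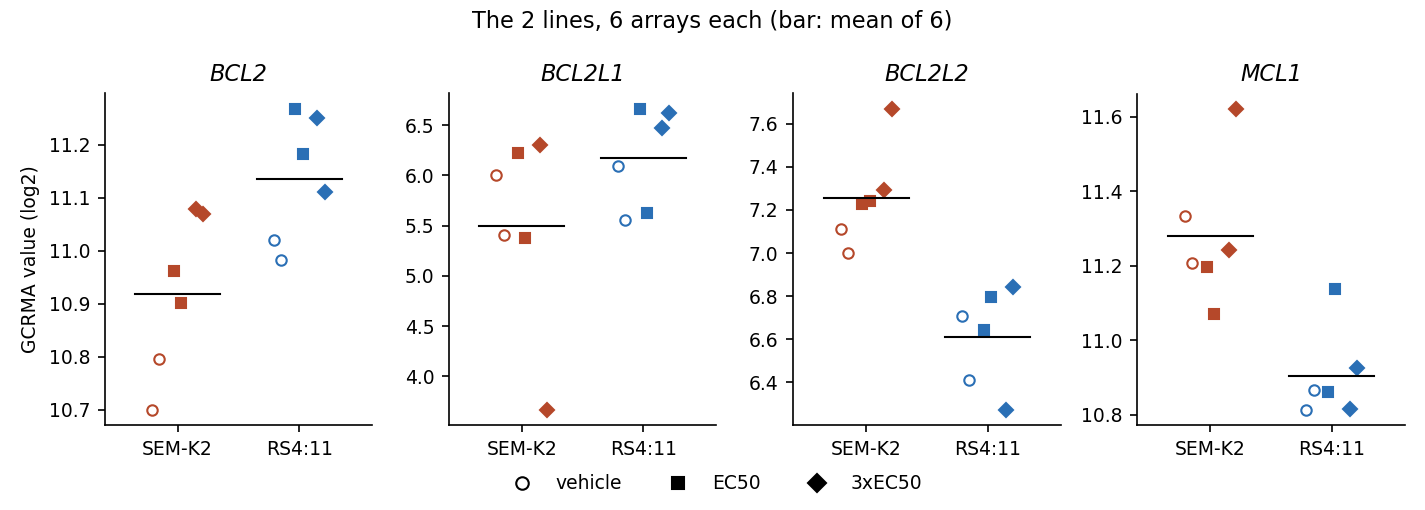
Log2 values of the 4 tested members on the 6 SEM-K2 arrays (left of each pair) and the 6 RS4:11 arrays. All SEM-K2 arrays lie above all RS4:11 arrays for BCL2L2, at 7.0 to 7.67 against 6.27 to 6.84, and the lines overlap for the other genes shown.

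The order of the 6 group means put the line before the dose for BCL2L2 and MCL1. For BCL2L2 it ran from SEM-K2 3xEC50 over SEM-K2 EC50 and SEM-K2 vehicle to RS4:11 EC50, RS4:11 vehicle and RS4:11 3xEC50. For MCL1 it ran from SEM-K2 3xEC50 over SEM-K2 vehicle and SEM-K2 EC50 to RS4:11 EC50, RS4:11 3xEC50 and RS4:11 vehicle. The lines were interleaved for BCL2, in the order RS4:11 EC50, RS4:11 3xEC50, SEM-K2 3xEC50, RS4:11 vehicle, SEM-K2 EC50 and SEM-K2 vehicle. For BCL2L1 the RS4:11 groups came first, from 3xEC50 over EC50 to vehicle, followed by SEM-K2 EC50, SEM-K2 vehicle and SEM-K2 3xEC50. Without the deviating array SEM-K2 3xEC50 had 6.30 for BCL2L1 and came second, after RS4:11 3xEC50. It then had 11.24 for MCL1 and came second, after SEM-K2 vehicle with 11.27, and the orders for BCL2 and BCL2L2 were as before. With all arrays no neighbours in these orders were called in limma, the smallest adjusted p being 0.322 between SEM-K2 vehicle and RS4:11 EC50 for BCL2L2.

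The rest of the apoptosis pathway was read from 6 further lists, of which 56 of 68 genes passed the filter. In SEM-K2 at 3xEC50 1 of the 56 rose, the transcription factor gene MYB, and 0 fell, a share of 1.79% called beside 0.824% of all genes. The unadjusted p was under 0.05 for 7 of the 56, beside 11.7% of all genes. With the deviating array left out that group had 1 array, and the change of MYB was 0.81. At EC50 in SEM-K2 0 of the 56 were called by limma, and 4 had an unadjusted p under 0.05, with backgrounds of 0.17% and 5.47%. In RS4:11 0 were called at either dose, as was no gene of the array. At each dose 1 of the 56 (1.79%) had an unadjusted p under 0.05, beside 4.9% of all genes at 3xEC50 and 4.2% at EC50. With the replicate block the numbers of called pathway genes were the same in these comparisons. Of all 10561 genes 220 were then called in SEM-K2 at 3xEC50, 46 in SEM-K2 at EC50 and 0 in RS4:11 at either dose.

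The multidomain relatives other than the members include the pore formers BAX and BAK1, and 4 of 8 passed the filter. None was called with drug. BAX had −1.0 ± 0.70 in SEM-K2 at 3xEC50, and 0.29 ± 0.48 without the deviating array. The BH3-only genes encode the sensors that antiapoptotic proteins bind, and 6 of 8 passed. Again none was called: BCL2L11, which encodes BIM, had 0.67 ± 0.25 in SEM-K2 at 3xEC50 (adjusted p = 0.343) and 0.40 ± 0.27 without the deviating array, and BIK had 1.14 ± 0.44 in RS4:11 at 3xEC50 (adjusted p = 0.895). The median change in SEM-K2 at 3xEC50 was −0.13 for the multidomain relatives and −0.18 for the BH3-only genes, beside 0.06 for all genes tested. Without the deviating array these medians were 0.17 and 0.32 in that order, beside 0.04 for all genes, so their sign rested on 1 array.

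Genes for the turnover of MCL1 and its relatives (10 of 11 past the filter), for partners outside the family (14 of 16) and for the apoptosome, caspases and their inhibitors (11 of 14) had no called change with drug either. Their medians in SEM-K2 at 3xEC50 were 0.11, 0.06 and −0.01 in that order, beside the 0.06 of all genes, and 0.05, −0.00 and 0.01 without the deviating array. The list of transcription factors that act on the members, all 11 of which passed, had a median of 0.32 in SEM-K2 and 0.04 in RS4:11 at 3xEC50, beside 0.06 and 0.02 for all genes. Its SEM-K2 median without the deviating array was 0.31.

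MYB, which encodes a haematopoietic factor known to activate the BCL2 promoter, read 11.81 and 11.85 with vehicle in SEM-K2, 12.40 and 12.46 at EC50, and 12.65 and 12.89 at 3xEC50. RS4:11 cells had 13.08 and 13.04 with vehicle, 13.32 and 13.51 at EC50, and 13.26 and 13.50 at 3xEC50. In both lines every treated array was above both vehicle arrays, as for BCL2 and for 3.61% of the tested genes. Whether MYB acted on BCL2 here was not tested. In limma's test across all genes the rise in SEM-K2 at 3xEC50 was 0.93 ± 0.15 (adjusted p = 0.0282). The call was lost on leaving out any array except both RS4:11 EC50 replicates and SEM-K2 3xEC50 replicate 1, with values of 0.81 to 0.95 and adjusted p of 0.0537 to 0.219. At EC50 the change in SEM-K2 was 0.60 (adjusted p = 0.340), and in RS4:11 it was 0.32 at 3xEC50 and 0.36 at EC50, none of them called.

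**Figure D5:**
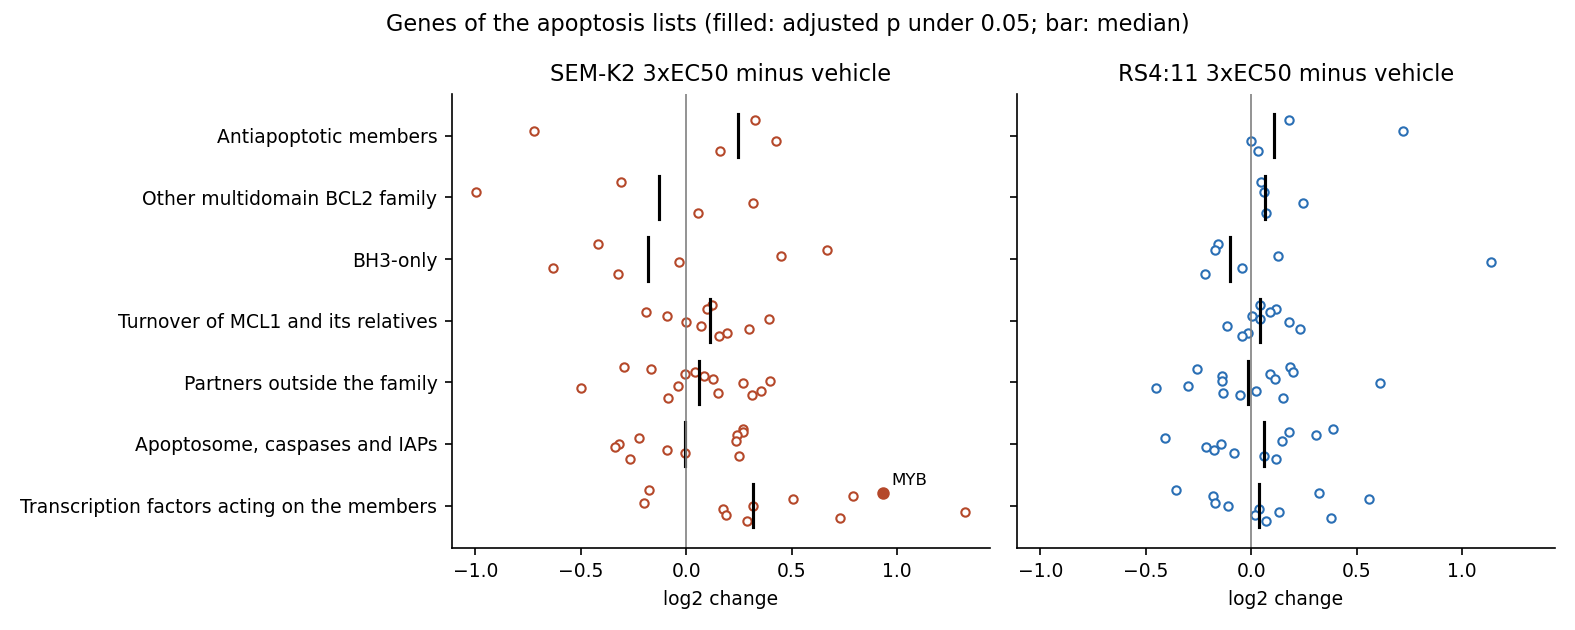
Log2 change at 3xEC50 minus vehicle for every tested gene of the antiapoptotic members and of 6 pathway lists, in SEM-K2 and RS4:11. Each point is a gene and the bar is the list's median. MYB at 0.93 in SEM-K2 is the only gene of these lists past an adjusted p of 0.05.

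Between the lines 17 of the 56 pathway genes were higher and 5 lower in SEM-K2, averaged over the 3 treatments. These 30.4% and 8.93% stand beside 23.3% higher and 17.8% lower among all genes, and the 39.3% called in all beside 41.1%. Of the BH3-only genes 1 of 6 was higher and 2 were lower. BIK, whose protein acts at the endoplasmic reticulum, had 3.56 to 4.64 on the SEM-K2 arrays against 6.32 to 8.03 on the RS4:11 arrays, without overlap. Since 3 of the 6 SEM-K2 arrays lay under the floor of 4, no size is given for this difference (adjusted p = 4.53e-06 in limma across all genes). PMAIP1, which encodes NOXA, the BH3-only protein that binds MCL1, had 10.53 to 11.14 against 11.30 to 11.88, a difference of −0.80 (adjusted p = 0.0005). BCL2L11 overlapped between the lines, at 8.88 to 9.86 in SEM-K2 against 8.34 to 8.95 in RS4:11, and was higher by 0.60 (adjusted p = 0.0079).

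In 4 of the other 5 lists no called gene was lower in SEM-K2. Of the partner genes 8 of 14 were higher and 0 lower. BNIP3, a mitophagy receptor that binds BCL2, had 9.04 to 11.37 in SEM-K2 and 2.36 to 2.82, under the floor of 4, in RS4:11, and was thus at least 75.5-fold higher. ITPR1, an endoplasmic reticulum calcium channel that BCL2 binds, was higher by 0.99. Of the turnover genes 3 of 10 were higher, with GSK3B, the kinase that marks MCL1 for degradation, at 0.76 and CDC20 at 0.68. The fit with a replicate block within each line compared the lines in the replicate 1 arrays alone. In that comparison CDC20 had 0.44 and was not called, nor was CUL5, the other of the 3, with 0.18. Of the apoptosome genes 2 of 11 were higher, CYCS by 0.56 and APAF1 by 0.83, and of the multidomain relatives 1 of 4, BCL2L13 by 0.50. Of the transcription factors 2 of 11 were higher, among them STAT3 by 0.93, and 3 were lower, among them MYB with −0.94 and REL with −0.54.

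The members did not vary as 1 unit across the arrays. After each line's mean was subtracted, Pearson's r over the 12 arrays was 0.39 between BCL2 and BCL2L2, 0.25 between BCL2 and MCL1, and −0.04 between BCL2 and BCL2L1. It was 0.65 between BCL2L2 and MCL1, −0.43 between BCL2L1 and BCL2L2, and −0.64 between BCL2L1 and MCL1. The deviating array was the highest for BCL2L2 and MCL1 and the lowest for BCL2L1. Without it r was 0.34 between BCL2L2 and MCL1, 0.18 between BCL2L1 and BCL2L2, −0.08 between BCL2L1 and MCL1, and 0.51 between BCL2 and BCL2L1. It was then 0.20 between BCL2 and BCL2L2 and −0.06 between BCL2 and MCL1. Among the 10561 genes the pattern most like that of BCL2 by this measure was that of ZMYND8 (r = 0.95), FNIP1 (0.95) and DENND4C (0.93). The likest to BCL2L1 were YWHAZ, HNRNPC and SLC50A1 (0.94 each), and to BCL2L2 DIP2B (0.98), ATP6V1B2 (0.93) and HLCS (0.92). The likest to MCL1 were DDX17 (0.95), TUBB3 (0.94) and SRF (0.94). Without the deviating array ZMYND8 and FNIP1 remained the likest to BCL2 and DIP2B to BCL2L2 (0.97). The genes named for BCL2L1 then had r of 0.80 to 0.82 and those for MCL1 0.85 to 0.91, and others stood above them. These are the top of 10561 correlations over arrays that share line, treatment and replicate number, and they are given as a description.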

How the data were processed

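The authors deposited 1 GCRMA value per probe set and array, per the submitters' processing notes, which give no version. They state no scale, and the range of the deposited numbers, 0.64 to 16.22, is that of log2 values. GCRMA corrects background by probe sequence and normalises arrays by quantiles, so values near 2 to 4 are a floor and equal array medians are imposed. The platform annotation gave 41097 of 54675 probe sets a single symbol, 1801 more than one and 11777 none. Some genes of the lists are not reported here.

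Genes over 4 on at least 2 arrays were fitted with lmFit and eBayes of limma 3.58.1 (R 4.3.3, with version 1.17.8 of the data.table package), 6 group means over 12 arrays with 6 residual and 3.27 prior degrees of freedom. P-values were adjusted by Benjamini-Hochberg within a contrast, with calls at 0.05. The code was tested on simulated data. The members, lists and tests were chosen with earlier results of these data known. Apart from the members, the rule named up to 4 called genes per list and contrast by adjusted p, and the 3 likest genes per member. Genes named with drug values that were not called, BAX, BCL2L11 and BIK, were chosen after their values were seen.

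Replicates with the same number deviated together from their group means, with correlations of 0.19 to 0.60 in all 15 pairs of groups, so the numbers pair the samples. Alternatives were another probe set or the mean of probe sets, the filter, array medians, the replicate block, single lines, each array left out and, added after seeing the data, the average over lines and doses and the probe sets, orders, correlations and pathway genes without SEM-K2 3xEC50 replicate 2.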

Additional observations from a re-analysis of the deposited data

How the results depend on the processing

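With 2 arrays a group the intervals of the drug changes are wide, and an effect within them is not shown to be absent. Of 1011 alternative values for the 44 drug and dose results of the members, 0 had an adjusted p under 0.05, and 100 had the other sign without being called. The replicate block changed no member's call when the number was shared by both lines. As a block within each line it was coded so that the line difference was that of the replicate 1 arrays alone. That value is not the line difference adjusted for the replicate number. For BCL2 it was −0.27, against −0.22 over all arrays, and it was not called. With no filter, 1 member was called between the vehicle groups (BCL2, −0.25, adjusted p = 0.0407). With probe sets averaged per gene, 1 member instead of 3 was called between the lines. BCL2 then had 0.000786 (adjusted p = 0.995, exact permutation p = 0.987) and MCL1 0.19. Single probe sets reversed the line difference of BCL2 (203684_s_at 0.106, 207005_s_at 0.132) and, with the deviating array in the fit, MCL1 (200796_s_at −0.0667, but 0.45 without it). BCL2L2 kept its call in all 20 alternatives, at 0.39 to 0.74. BCL2L1 was called only without SEM-K2 3xEC50 replicate 1 (−1.12, adjusted p = 0.00788), which leaves the deviating array alone in that group. Of pathway genes, averaged probe sets gave PAX5 −0.0276, BCL2L13 0.21 (adjusted p = 0.0875) and APAF1 0.49 (adjusted p = 0.0947). For these and the other changed values the cause was not tested. Leaving out 1 array in turn gave 12 to 168 called genes in SEM-K2 at 3xEC50.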
